A study of Mus musculus with 6 samples.

Results

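The genes described here encode enzymes that write and erase lysine acetylation, proteins that read it, and the scaffolds on which the erasers act. They were chosen from a list of 44 gene symbols, left as the files spell them, and all 44 were found among the 23284 gene names of the 6 count files. Crebbp and its paralogue Ep300 were left out of the list. The older names Myst1, Myst2, Myst3 and Myst4 stand for the genes now called Kat8, Kat7, Kat6a and Kat6b. All 44 genes passed the filter on low counts, with between 128 and 10682 reads in a library.

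The study measured messenger RNA in preSC, a mouse line labelled as a precursor of SCLC (small cell lung cancer), to find genes regulated by Crebbp, and its title links loss of Crebbp to sensitivity to deacetylase inhibition. All 6 libraries came from cells with a lentiviral pLKO.1-TRC vector. Control replicates 1 and 2 carried the empty vector (shEmpty) and control replicate 3 a non-silencing hairpin (shNS). The shCrebbp libraries carried hairpin 1, 2 or 5 against Crebbp, with 1 library each. The labels name no separate cultures, so each p-value is measured against the spread of these libraries alone, hairpin differences included, and each result rests on 1 line.

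Acetyl groups are placed on histone lysines by acetyltransferases, which take them from acetyl-CoA, and are removed by deacetylases. Bromodomain proteins bind the acetylated lysines and bring other factors to chromatin. Deacetylases fall into zinc-dependent enzymes (classes I, IIa, IIb and IV) and NAD-dependent sirtuins. Common deacetylase inhibitors act on some, not all, of the zinc-dependent enzymes and do not act on sirtuins. CBP, the product of Crebbp, and p300 are writers outside the families listed here, and they act on many promoters and enhancers together with the p160 coactivators.

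Gene counts summed to between 13622020 and 19804949 reads per library. Library values are given below in the order control replicates 1, 2 and 3 (shEmpty, shEmpty, shNS) and hairpins 1, 2 and 5, and the error of a log2 fold change (shCrebbp minus control) is its SE. Crebbp itself stood at 66.2, 69.6 and 69.4 CPM in the controls and 46.2, 58.3 and 48.9 CPM under hairpins 1, 2 and 5 (CPM, counts scaled to library size by TMM), with a log2 fold change of -0.42 ± 0.10 that missed the threshold of 0.05 (adjusted p in edgeR = 0.0999). The 9 neuroendocrine markers reported were all above 100 CPM in controls, led by Calca and Ddc, and summed to 5061 to 5505 CPM in controls and 3689 to 4945 CPM with hairpins. Without Calca the control sums were 3495, 3535 and 3469.5 CPM and the hairpin sums 3057, 3768 and 3784 CPM, on both sides of the controls. Of 8 fibroblast markers, Dcn and Pdgfra exceeded 1 CPM in controls and Col3a1 had no read (summed 38.0 to 45.8 CPM in controls, 14.8 to 64.2 CPM with hairpins, nearly all of it Dcn). The 7 leukocyte markers reported, led by Cd68 and Lyz2, summed to at most 5.55 CPM in any library. The 6 endothelial markers, led by Pecam1 and Tek and with Cldn5 and Emcn at 0, summed to at most 1.63 CPM. In such bulk libraries, fewer expressing cells and less RNA per cell cannot be told apart.

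No gene of the 44 passed an adjusted p of 0.05 in edgeR, against 1.25% of the 13390 genes tested (37 higher and 131 lower). At an unadjusted p under 0.05 there were 6 (13.6%), which were Hdac9, Hdac6, Myst4 and Brd9 with positive and Hdac11 and Hdac5 with negative fold changes, against 16.5% of all genes tested. DESeq2 called 2 of the 44 (4.55%, Hdac9 higher and Hdac11 lower) against 5.30% of the genes to which it gave an adjusted p. Limma-voom with library quality weights called 3 (6.82%, Hdac9 and Hdac6 higher, Hdac11 lower) against 5.09%, while limma-voom without weights called none. The share of the 44 that was called lay near the share of all genes in each of these analyses.

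The fold changes of the 44 were small. The median log2 fold change was 0.041, beside 0.015 over all genes tested, and the median size was 0.099, beside 0.14. Positive values numbered 25 (56.8%, beside 53.2%) and negative ones 19. Only Hdac11 had an estimate beyond 1.5-fold, beside 1289 of the 13390 genes tested. Among 10015 genes at least as abundant as the least abundant of the 44, it was 399. The median size over those 10015 genes was 0.113. The 95% interval lay wholly within 1.5-fold of no change in 40 of the 44 (90.9%), and reached beyond it in Hdac4, Hdac9, Hdac11 and Rcor1. The same was true of 62.2% of all genes tested. It was true of 79.9% of the 10015 genes at least as abundant over all 6 libraries as the least abundant of the 44. Such intervals narrow with depth, and the 44 were abundant genes, with a median of 80.0 CPM in controls beside 35.5 CPM over all genes tested.

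**Figure D1:**
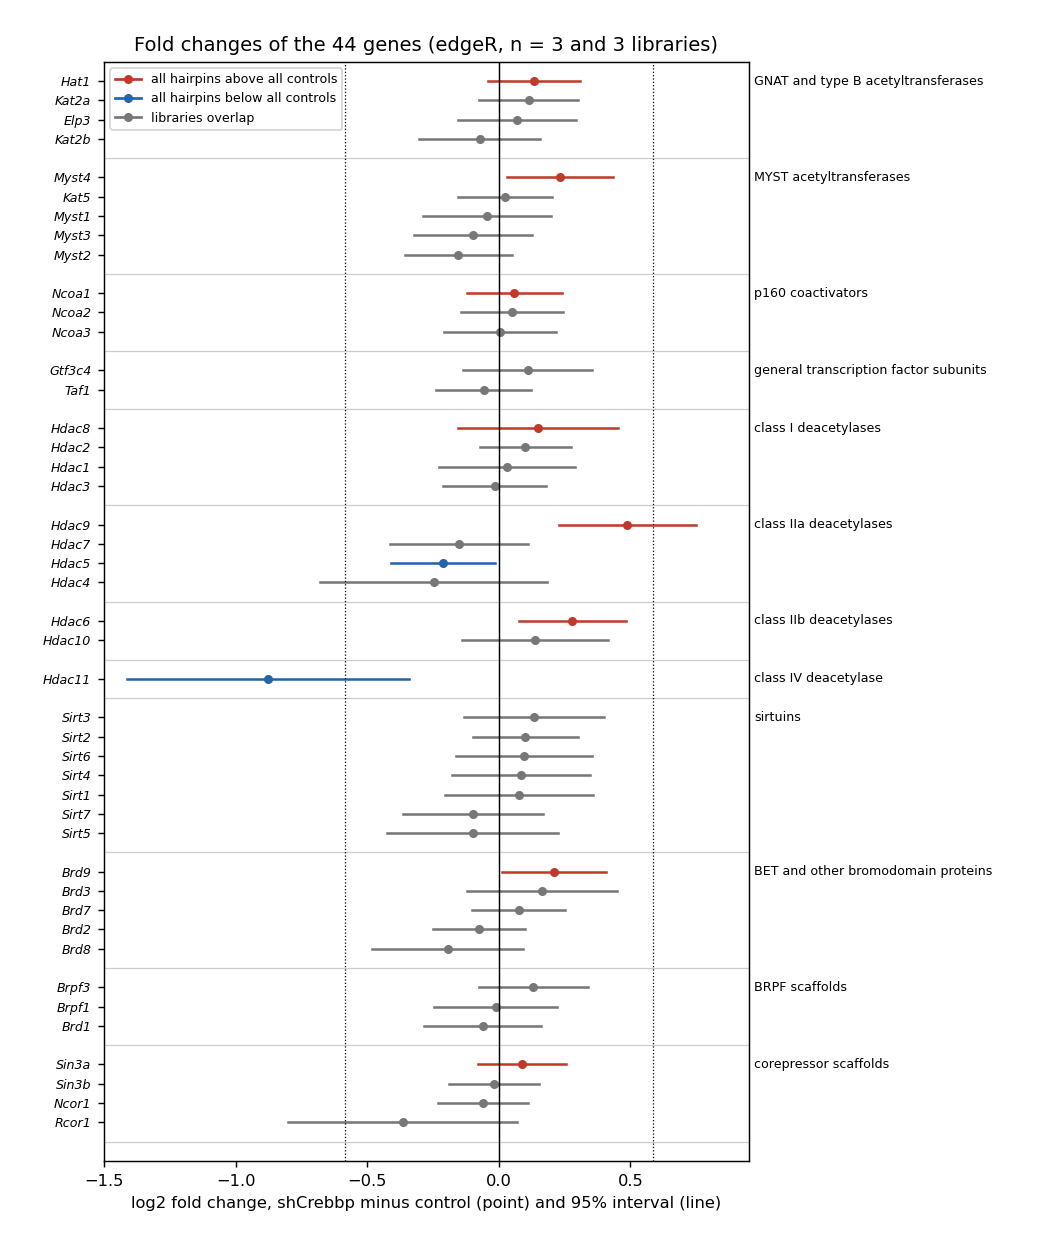
Log2 fold change of each of the 44 genes, shCrebbp minus control (horizontal axis), as points with 95% intervals as lines, from edgeR with 3 libraries in each group; dotted lines mark 1.5-fold. Colour shows whether the 3 hairpin libraries all lay above or all below the 3 controls. The intervals of Hdac11 and Hdac5 lie wholly below 0 and those of Hdac9, Hdac6, Myst4 and Brd9 wholly above. Within the dotted lines lie 40 intervals.

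In 8 genes all 3 hairpin libraries lay above all 3 controls (18.2%), namely Hat1, Myst4, Ncoa1, Hdac8, Hdac9, Hdac6, Brd9 and Sin3a, against 11.4% of all genes tested. In 2 genes, Hdac11 and Hdac5, all 3 lay below (4.55%), against 11.0% of all genes. Some of these separations were narrow. Ncoa1 stood at 72.3, 72.6 and 66.6 CPM in controls against 72.7, 74.0 and 73.8 CPM with hairpins, with a gap between the groups far smaller than the spread of the controls. In the other 34 genes the groups overlapped.

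Erasers held the 3 genes with the smallest p. Hdac11, the only class IV deacetylase, which also removes fatty acyl groups from lysine, stood at 159, 161 and 145 CPM in the controls and 51.3, 93.6 and 108 CPM under hairpins 1, 2 and 5. Every hairpin library lay below every control, and hairpin 1 lay far below the other two. The group means were 155 ± 8.76 and 84.5 ± 29.7 CPM (SD, n = 3 each), a log2 fold change of -0.88 ± 0.23 with a 95% interval of -1.41 to -0.34 and an edgeR adjusted p of 0.116. Without hairpin 1 the estimate was smaller, at -0.62, and passed the threshold (edgeR adjusted p = 0.0258). Hdac11 was then the only 1 of the 44 called (2.27%), against 2.72% of all genes. The gene also passed in DESeq2 (adjusted p = 0.00482) and in limma-voom with quality weights (adjusted p = 0.0226). Over all 14 alternatives its adjusted p ran from 0.00482 to 0.409, the highest without control replicate 2, and the log2 fold change from -1.11 to -0.62. Crebbp stood at 46.2, 58.3 and 48.9 CPM under hairpins 1, 2 and 5, with 1 library each, and its relation to the level of Hdac11 was not tested. The summed fibroblast markers, nearly all Dcn, were 14.8, 36.5 and 64.2 CPM under hairpins 1, 2 and 5. They lay in the same order as Hdac11 but on both sides of the controls. The summed neuroendocrine markers were 3689, 4599.8 and 4945 CPM, also in that order. Without Calca they were 3057, 3768.5 and 3784 CPM, with hairpin 1 below and hairpins 2 and 5 above all controls. The part of either marker sum in the result was not tested. Exons of Hdac11 overlap an antisense gene (Gm14573 in GENCODE M21), whose reads cannot be told apart where the counting ignored strand.

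Hdac9, a class IIa deacetylase that represses MEF2 transcription factors, stood at 23.5, 21.5 and 19.3 CPM in the controls and 29.7, 32.1 and 28.7 CPM under hairpins 1, 2 and 5. All 3 hairpin libraries exceeded all 3 controls by a similar amount, with log2 ratios to the control mean of 0.47, 0.58 and 0.42. The log2 fold change was 0.49 ± 0.11, with an interval of 0.23 to 0.75 and an edgeR adjusted p of 0.0858. It passed in DESeq2 (adjusted p = 0.0185) and with quality weights (adjusted p = 0.0386), and over the 14 alternatives the adjusted p ran from 0.0185 to 0.394, again highest without control replicate 2. Its counts are per gene and do not separate isoforms.

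Hdac6, a largely cytoplasmic class IIb enzyme that deacetylates tubulin, stood at 52.7, 51.5 and 50.0 CPM in the controls and 57.8, 62.3 and 67.0 CPM under hairpins 1, 2 and 5. The hairpin libraries lay above the controls without overlap, at a log2 fold change of 0.28 ± 0.088 (edgeR adjusted p = 0.172). Among the 14 alternatives the gene passed only in limma-voom with quality weights (adjusted p = 0.0468), and the adjusted p reached 0.555. Hdac10, the other class IIb gene, which encodes a polyamine deacetylase, stood at 25.0, 28.2 and 32.3 CPM in controls against 30.4, 33.8 and 29.9 CPM with hairpins, and the groups overlapped. Its log2 fold change was 0.14 ± 0.12 (adjusted p = 0.638).

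The promoters of these 3 genes are shown because they had the smallest p among the 44 and because CBP was named for its binding to CREB, a factor that binds the cAMP response element (CRE). Each window runs from 250 bases before to 50 after a transcription start in RefSeq on GRCm38.p6, another build than the mm9 of the files, and is written along the strand of the gene. Capitals mark the CRE core TGACG and the GC box GGGCGG, found on either strand.
Hdac11 (chr6:91156565-91156864, plus strand): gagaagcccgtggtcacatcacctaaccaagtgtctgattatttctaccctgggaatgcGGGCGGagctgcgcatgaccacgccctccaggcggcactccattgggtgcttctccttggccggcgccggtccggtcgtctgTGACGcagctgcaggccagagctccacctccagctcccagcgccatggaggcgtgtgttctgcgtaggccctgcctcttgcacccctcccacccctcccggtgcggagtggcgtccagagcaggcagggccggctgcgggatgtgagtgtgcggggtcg
Hdac9 upstream start (chr12:34917046-34917345, minus strand): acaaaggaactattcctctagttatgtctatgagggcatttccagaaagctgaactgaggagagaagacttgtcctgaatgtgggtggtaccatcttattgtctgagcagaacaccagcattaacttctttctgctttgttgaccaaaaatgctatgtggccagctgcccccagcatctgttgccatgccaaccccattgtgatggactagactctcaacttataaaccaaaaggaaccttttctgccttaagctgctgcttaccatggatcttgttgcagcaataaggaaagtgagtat
Hdac9 downstream start (chr12:34528840-34529139, minus strand): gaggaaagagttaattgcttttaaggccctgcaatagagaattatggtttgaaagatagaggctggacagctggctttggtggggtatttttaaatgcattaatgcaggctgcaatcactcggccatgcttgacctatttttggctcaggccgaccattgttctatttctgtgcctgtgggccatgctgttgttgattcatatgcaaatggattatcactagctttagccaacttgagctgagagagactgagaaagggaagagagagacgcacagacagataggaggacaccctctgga
Hdac6 (chrX:7947840-7948139, minus strand): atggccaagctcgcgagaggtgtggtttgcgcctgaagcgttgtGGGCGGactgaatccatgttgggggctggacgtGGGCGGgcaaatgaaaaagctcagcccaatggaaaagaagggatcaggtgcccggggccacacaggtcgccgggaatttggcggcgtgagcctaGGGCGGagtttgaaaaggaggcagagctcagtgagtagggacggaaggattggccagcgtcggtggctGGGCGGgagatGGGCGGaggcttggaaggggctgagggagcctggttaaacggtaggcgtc
The Hdac11 window held 1 CRE core (bases 142 to 146) and 1 GC box (bases 60 to 65), and the Hdac6 window held 5 GC boxes and no CRE core. Neither Hdac9 window held either motif, and GC content was 44% and 45.3% there, against 66.7% for Hdac11 and 62.0% for Hdac6.

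Windows were at hand for 36 of the 44 genes, 51 windows in all. The full element TGACGTCA, which contains the core, was in none of the 51, beside 1.79% of the 32851 windows of all RefSeq genes, non-coding genes included. The core TGACG was in 18 (35.3%) beside 20.8%, and the GC box in 35 (68.6%) beside 35.7%. Median GC content was 62.0% in the 51 windows and 52.7% in all, and its part in these shares was not tested. A match is a stretch of letters and not a measured binding site.

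**Figure D2:**
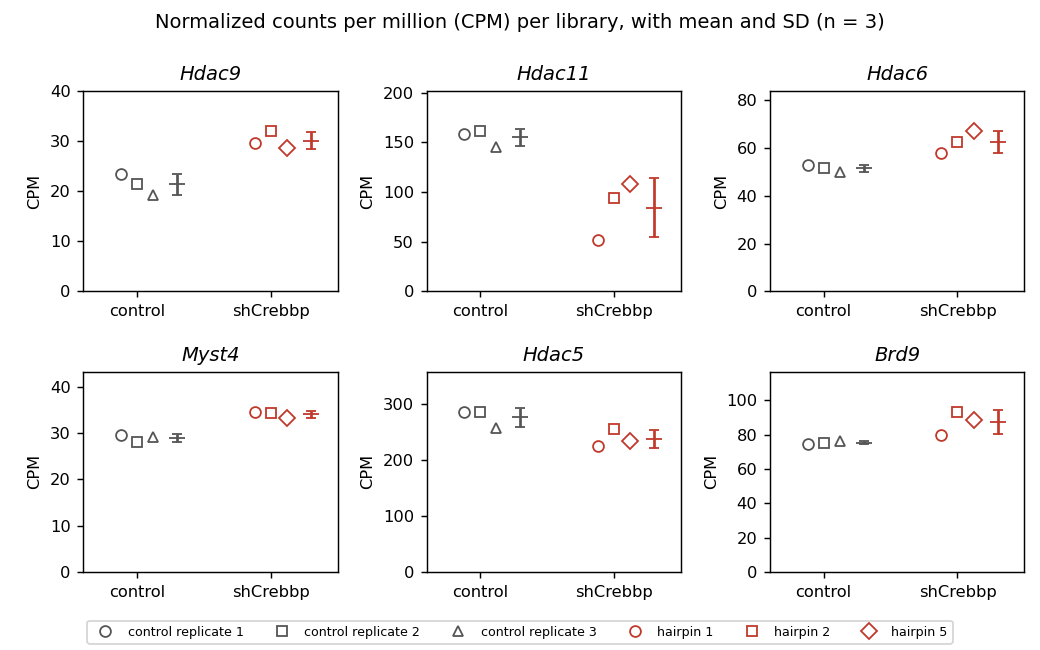
Normalized CPM (vertical axes, from 0) in each library for the 6 genes with an unadjusted p under 0.05, with control libraries in grey, hairpin libraries in red, and bars for the mean and SD of 3 libraries. Hairpins lie above controls in Hdac9, Hdac6, Myst4 and Brd9 and below them in Hdac11 and Hdac5, where hairpin 2 nearly meets control replicate 3.

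Class I deacetylases are the nuclear enzymes of the main corepressor complexes, and no fold change of the 4 passed. Hdac1 and Hdac2 had the highest counts among the erasers. Hdac1 stood at 324, 325 and 287 CPM in controls against 355, 272 and 330.4 CPM with hairpins, so that hairpin 2 lay below and hairpins 1 and 5 above all controls. Hdac2, its close paralogue, stood at 304, 281 and 308 CPM in controls against 327, 325 and 307 CPM with hairpins, and the groups overlapped. Intervals of the log2 fold change were -0.23 to 0.29 for Hdac1 and -0.073 to 0.28 for Hdac2 (edgeR adjusted p = 0.933 and 0.570). Hdac3, the enzyme of the NCoR complex, stood at 118, 114 and 112 CPM in controls against 104, 115 and 122 CPM with hairpins, with a log2 fold change of -0.016 ± 0.085. Its hairpins lay on both sides of the controls. Hdac8, which deacetylates cohesin, was the rarest of the class at 9.96, 10.7 and 10.4 CPM in controls against 11.4, 12.1 and 11.0 CPM with hairpins. Its libraries did not overlap, but its log2 fold change was only 0.15 ± 0.13 (adjusted p = 0.644).

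The other class IIa genes, which like Hdac9 shuttle between nucleus and cytoplasm, had negative fold changes that did not pass. Hdac5 stood at 285, 286 and 257 CPM in controls against 225, 256 and 234 CPM with hairpins. All hairpin libraries lay below all controls, by a narrow margin for hairpin 2, and the log2 fold change was -0.21 ± 0.086 (edgeR adjusted p = 0.268). Hdac4 stood at 18.7, 17.6 and 18.3 CPM in controls against 20.2, 13.2 and 12.6 CPM with hairpins. Hairpins 2 and 5 lay below the controls and hairpin 1 above them, and the interval of the log2 fold change was wide, at -0.68 to 0.18. Hdac7 stood at 27.5, 28.0 and 30.2 CPM in controls against 25.4, 28.7 and 23.1 CPM with hairpins, with overlapping groups and a log2 fold change of -0.15 ± 0.11 (adjusted p = 0.575).

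Of the 7 sirtuins, none passed and in none were the groups apart, and all 7 intervals lay within 1.5-fold. Log2 fold changes ran from -0.099 to 0.13. Sirt2, which acts on tubulin in the cytoplasm, had the smallest p of the family and stood at 44.1, 49.1 and 45.0 CPM in controls against 48.4, 48.4 and 51.4 CPM with hairpins (edgeR adjusted p = 0.631). Sirt3, a mitochondrial deacetylase, stood at 17.8, 17.1 and 17.4 CPM in controls against 19.6, 20.4 and 17.4 CPM with hairpins, where hairpin 5 lay among the controls. Sirt1, a nuclear family member, stood at 72.7, 64.0 and 65.8 CPM in controls against 71.0, 60.4 and 82.4 CPM with hairpins. The hairpins lay on both sides of the controls, with hairpin 5 the highest. Sirt7, a nucleolar enzyme, stood at 63.9, 74.5 and 79.8 CPM in controls against 69.1, 74.4 and 60.3 CPM with hairpins, with a control spread as wide as that of the hairpins. The chromatin-bound Sirt6 stood at 27.5, 28.8 and 26.4 CPM in controls against 33.1, 26.4 and 28.9 CPM with hairpins, where hairpin 1 was the highest library and hairpin 2 lay at the lowest control. Of the mitochondrial enzymes, Sirt4 stood at 15.7, 17.1 and 17.6 CPM in controls against 16.9, 18.5 and 18.0 CPM with hairpins. Sirt5, which removes succinyl and malonyl groups, stood at 11.2, 11.2 and 10.7 CPM in controls against 9.41, 11.4 and 10.1 CPM with hairpins, with hairpin 1 the lowest and hairpin 2 the highest library.

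Among the 14 writers no gene passed, and the intervals of all 14 lay within 1.5-fold. Myst4, whose product MORF acetylates histone H3, had the smallest p and stood at 29.7, 28.0 and 29.2 CPM in the controls and 34.6, 34.3 and 33.2 CPM under hairpins 1, 2 and 5. The hairpin libraries agreed closely, with log2 ratios of 0.26, 0.24 and 0.20, and all lay above the controls. The log2 fold change was 0.23 ± 0.088 (edgeR adjusted p = 0.240). Its paralogue Myst3 (MOZ) stood at 132, 119 and 123 CPM in controls against 126, 103 and 122 CPM with hairpins, with overlapping groups. Myst2 (HBO1), the most abundant of the family per length, stood at 209, 221 and 213 CPM in controls against 181, 182 and 214 CPM with hairpins. Hairpins 1 and 2 lay below all controls and hairpin 5 among them, and the log2 fold change was -0.15 ± 0.089 (adjusted p = 0.441). Kat5, the catalytic subunit of the NuA4 complex, stood at 60.0, 60.5 and 61.3 CPM in controls against 60.2, 60.8 and 64.0 CPM with hairpins, with a log2 fold change of 0.025 ± 0.078. Myst1 (MOF), which acetylates histone H4, stood at 34.6, 36.0 and 34.6 CPM in controls against 30.5, 33.5 and 38.1 CPM with hairpins, with a log2 fold change of -0.044 ± 0.11. Both overlapped, and in Myst1 the hairpins lay on both sides of the controls.

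Hat1, which acetylates newly made histone H4, stood at 94.9, 89.9 and 89.0 CPM in controls against 95.8, 103 and 102 CPM with hairpins. Hairpin 1 exceeded the highest control only narrowly, and the log2 fold change was 0.13 ± 0.076 (edgeR adjusted p = 0.444). Kat2a, the acetyltransferase of the SAGA complex, stood at 104, 107 and 110.3 CPM in controls against 124, 115 and 108 CPM with hairpins, with hairpin 5 among the controls (adjusted p = 0.549). Its paralogue Kat2b stood at 77.8, 72.4 and 72.3 CPM in controls against 69.7, 63.0 and 78.7 CPM with hairpins. Elp3, the catalytic subunit of Elongator, which modifies transfer RNA, stood at 88.4, 90.2 and 95.1 CPM in controls against 105, 84.5 and 98.0 CPM with hairpins. Hairpin 2 was the lowest library in both, and the log2 fold changes were -0.073 ± 0.10 and 0.069 ± 0.097.

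The p160 coactivators, which bind nuclear receptors and recruit CBP and p300, were close to the controls. Log2 fold changes were 0.059 ± 0.078 for Ncoa1, 0.050 ± 0.085 for Ncoa2 and 0.0042 ± 0.093 for Ncoa3, and no interval of the 3 reached beyond -0.21 or 0.24. Ncoa2 stood at 79.2, 75.8 and 75.9 CPM in controls against 80.5, 73.5 and 84.9 CPM with hairpins. Ncoa3, which is also known as ACTR, stood at 89.5, 82.7 and 76.8 CPM in controls against 89.9, 79.9 and 80.0 CPM with hairpins. The groups overlapped in both. Taf1, the largest subunit of TFIID, stood at 157, 142 and 141 CPM in controls against 139, 139 and 145 CPM with hairpins, with a log2 fold change of -0.057 ± 0.079. Gtf3c4, a subunit of the RNA polymerase III factor TFIIIC, stood at 104, 104 and 99.8 CPM in controls against 128, 100.2 and 103 CPM with hairpins. Hairpin 1 stood apart there and the other two hairpins lay at the level of the controls.

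No reader passed. Brd9, a bromodomain subunit of a SWI/SNF remodelling complex, stood at 74.8, 75.1 and 76.3 CPM in the controls and 79.6, 93.4 and 88.3 CPM under hairpins 1, 2 and 5. The controls lay close together and all hairpins above them, and the log2 fold change was 0.21 ± 0.086 (edgeR adjusted p = 0.279). The BET protein gene Brd3 stood at 247, 259 and 297 CPM in controls against 259.6, 349 and 289.7 CPM with hairpins, where only hairpin 2 exceeded all controls, and its log2 fold change was 0.16 ± 0.12 (adjusted p = 0.577). Its paralogue Brd2 stood at 486, 516 and 506 CPM in controls against 468, 456 and 506 CPM with hairpins, with a log2 fold change of -0.076 ± 0.076. Brd8, a subunit of the NuA4 complex, stood at 227, 212 and 187 CPM in controls against 168, 164 and 215 CPM with hairpins. Hairpins 1 and 2 lay below the controls and hairpin 5 within them, and the log2 fold change was -0.19 ± 0.12 (adjusted p = 0.492). Brd7, of another SWI/SNF complex, stood at 92.6, 94.7 and 95.8 CPM in controls against 103, 93.7 and 102 CPM with hairpins, with a log2 fold change of 0.075 ± 0.077.

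The BRPF proteins carry a bromodomain and hold MYST acetyltransferase complexes together. Brpf3 stood at 71.1, 75.8 and 68.2 CPM in controls against 78.2, 84.6 and 72.8 CPM with hairpins, with a log2 fold change of 0.13 ± 0.090 (edgeR adjusted p = 0.528). Brd1 stood at 138, 142 and 138 CPM in controls against 149, 118 and 134 CPM with hairpins. Brpf1 stood at 91.6, 87.1 and 93.1 CPM in controls against 101, 79.4 and 89.0 CPM with hairpins. In these 2 genes, hairpin 1 lay above all controls and hairpin 2 below them, so that the means hardly differed, with log2 fold changes of -0.061 ± 0.097 and -0.011 ± 0.10.

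Of the corepressor scaffolds, Rcor1, which links Hdac1 and Hdac2 to the demethylase Kdm1a, had the widest spread. It stood at 50.7, 44.3 and 35.5 CPM in controls against 40.1, 25.2 and 36.3 CPM with hairpins, and the shNS control lay below 2 of the hairpin libraries. The log2 fold change was -0.36 ± 0.19 with an interval of -0.80 to 0.071 (edgeR adjusted p = 0.392). Sin3a stood at 90.8, 92.0 and 90.9 CPM in controls against 98.0, 93.9 and 99.0 CPM with hairpins, apart but by a log2 fold change of only 0.087 ± 0.072 (adjusted p = 0.617). Its paralogue Sin3b stood at 120.2, 122 and 129.8 CPM in controls against 126, 119.9 and 122 CPM with hairpins, with a log2 fold change of -0.018 ± 0.075. Ncor1, the scaffold of Hdac3 and the most abundant of the 44 in CPM, stood at 546, 531 and 525 CPM in controls against 489, 544 and 503 CPM with hairpins, with a log2 fold change of -0.060 ± 0.075.

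Within the 44 the hairpins often lay apart from each other. In 25 genes they lay on both sides of the control mean, in 14 all above it and in 5 all below it. The shares over all genes tested were not counted for this split, so it describes the 44 alone. The range over the 3 hairpins exceeded the range over the 3 controls in 33 genes (75.0%), beside 78.5% of all genes tested. With hairpin 1, 1 gene (Hdac11) lay beyond 1.5-fold of the control mean (2.27%). This compares with 17.5% of all genes tested and 8.76% of the 10015 genes at least as abundant as the least abundant of the 44. With hairpin 2 there were 2, Hdac11 and Rcor1 (4.55%), against 15.9% and 8.51%. With hairpin 5 there was none, against 9.69% and 3.25%. The ratios of Hdac11 were -1.60, -0.73 and -0.51 with hairpins 1, 2 and 5, those of Rcor1 were -0.12, -0.79 and -0.26, and those of Hdac4 were 0.15, -0.46 and -0.53. With 1 library for each hairpin, a difference between hairpins cannot be told apart from a difference between libraries.

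**Figure D3:**
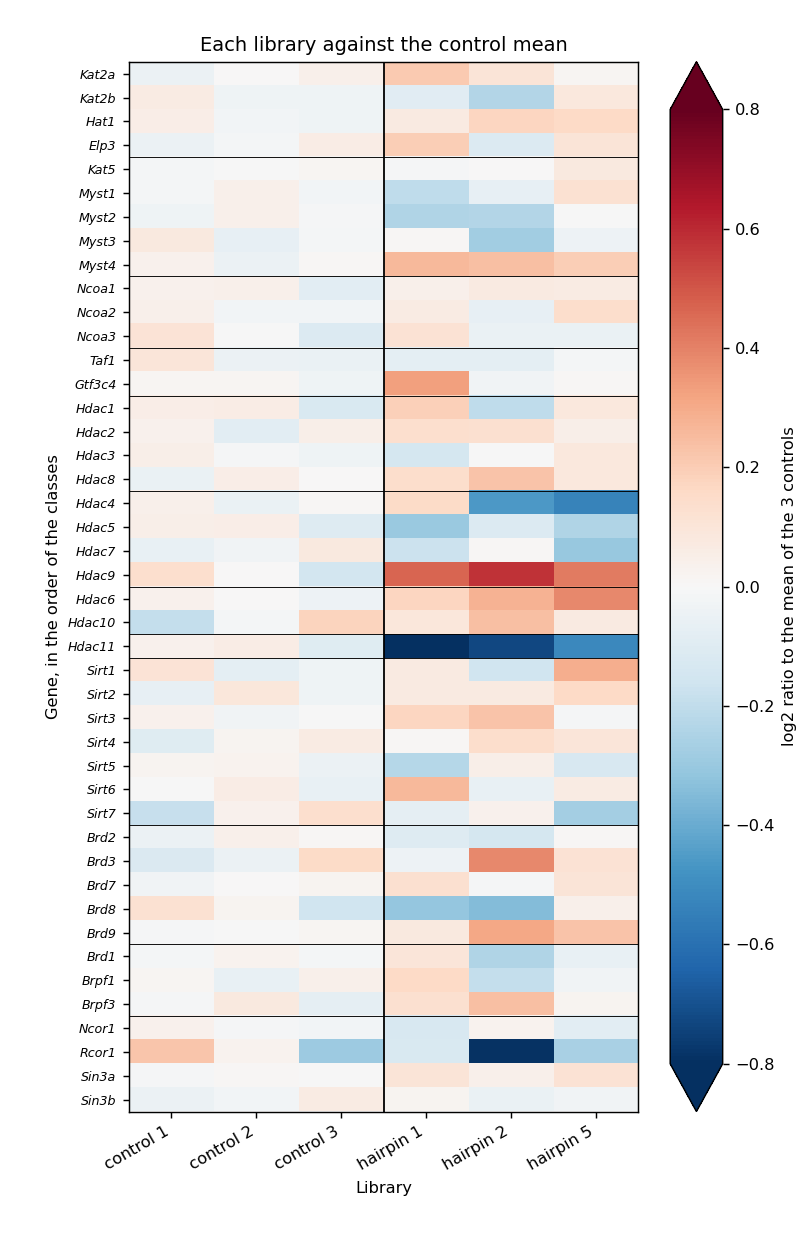
Log2 ratio of each library to the mean of the 3 controls for the 44 genes (rows, in class order, with lines between classes), in 3 control and 3 hairpin columns; the colour scale ends at 0.8 in either direction. Hdac11 is blue and Hdac9 red in each hairpin column, while Rcor1 stands out with hairpin 2, Hdac4 with hairpins 2 and 5, and Gtf3c4 with hairpin 1.

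The shNS library was set against the shEmpty libraries. In a fit that pools the spread over all 6 libraries, with the lone shNS library assumed to vary like the others, edgeR called no gene of the 44 between shNS and shEmpty, and none of all 14020 genes tested (0%). At an unadjusted p under 0.05 there was none of the 44, beside 111 of all genes (0.792%). With 1 library against 2 and a spread that includes the hairpin differences, this fit could call little, and its counts do not show that the vectors were alike. Log2 differences (shNS minus shEmpty) ran from -0.42 in Rcor1 to 0.28 in Hdac10. They were -0.14 for Hdac11 and -0.22 for Hdac9, smaller than the shCrebbp fold changes of these genes. In Rcor1 the difference was larger in size than the shCrebbp fold change. The same held for other genes, among them Hdac10, Brd3, Brd8, Sirt7, Hdac1 and Ncoa3.

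Levels were compared between genes as CPM per kilobase of the longest coding transcript (RPKM scale), with lengths from GENCODE M21. The order depends on this length. Hdac1 was the highest of the 44 at 153 ± 10.8 in controls (SD, n = 3), followed in class I by Hdac2 at 91.6 ± 4.48 and Hdac3 at 56.5 ± 1.64, while Hdac8 stood at 5.35 ± 0.198. Brd2 was second at 108 ± 3.29. Levels of Myst2 (60.2 ± 1.64), Ncor1 (59.1 ± 1.20), Hdac11 (58.4 ± 3.30), Hdac5 (56.9 ± 3.46) and Hdac3 were within 1 SD of a neighbour in this order. The lowest were Hdac4 at 2.25 ± 0.0745, Hdac9 at 2.70 ± 0.262 and Myst4 at 3.76 ± 0.114.

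Summed over its 4 genes, class I stood at 307 ± 10.2 in controls and 317 ± 18.7 with hairpins on this scale, and class IIa at 68.6 ± 3.35 in controls and 60.9 ± 3.80 with hairpins. Class IIb summed to 24.2 ± 1.19 in controls and 28.1 ± 1.33 with hairpins. Each of its hairpin sums exceeded each control sum, but such a separation was not particular to class IIb. The class of Kat2a, Kat2b, Hat1 and Elp3 summed to 129.8 to 132.0 in controls and 135.1 to 142.8 with hairpins. The corepressor scaffolds separated in the other direction, at 113.3 to 116.0 in controls and 110.6 to 111.8 with hairpins. These differences in class sums were not tested. Hdac11 made up 12.8% ± 0.367 of the summed level of the 11 zinc-dependent deacetylase genes in controls, and 4.43%, 8.29% and 9.08% with hairpins 1, 2 and 5. Class I made up 67.0% ± 0.472 in controls and 72.4% ± 3.35 with hairpins. The total includes Hdac11, so a lower level of Hdac11 alone raises the share of class I. Sirt7 was the highest sirtuin at 42.1 ± 4.70 and Sirt5 the lowest at 4.54 ± 0.130. In the other classes the highest and lowest were Hat1 and Kat2b (48.1 ± 1.65 and 15.9 ± 0.672), Ncoa3 and Ncoa2 (11.0 ± 0.846 and 9.42 ± 0.236), Taf1 and Gtf3c4 (18.2 ± 1.11 and 14.4 ± 0.308), Hdac6 and Hdac10 (12.4 ± 0.324 and 11.8 ± 1.52), Brd2 and Brd7 (the latter 26.0 ± 0.450), Brd1 and Brpf3 (27.1 ± 0.506 and 10 ± 0.536), and Ncor1 and Rcor1 (the latter 7.66 ± 1.34).

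The order of the 44 in the shCrebbp means differed little from that in the controls. Hdac11 moved from rank 6 to rank 15, and no other gene moved by more than 3 places. With the median coding transcript length, Ncor1 ranked first at 179 and Hdac1 second, and 6 genes moved by more than 5 places. Order within classes turned as well. Kat2b went from the lowest of its class to the highest (110.2, beside 52.5 for Hat1), with Elp3 the lowest. Ncoa1 (34.1) passed Ncoa3 (12.5), Hdac7 (7.25) became the lowest of class IIa and Brpf1 (20.0) the lowest BRPF gene. Myst4 was then the lowest of all 44, while Hdac4 and Hdac9 stood at 7.47 and 7.29. The share of Hdac11 among the zinc-dependent deacetylases was then 21.5% in controls and 12.7% with hairpins, and that of class I 57.0% and 64.5%.

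**Figure D4:**
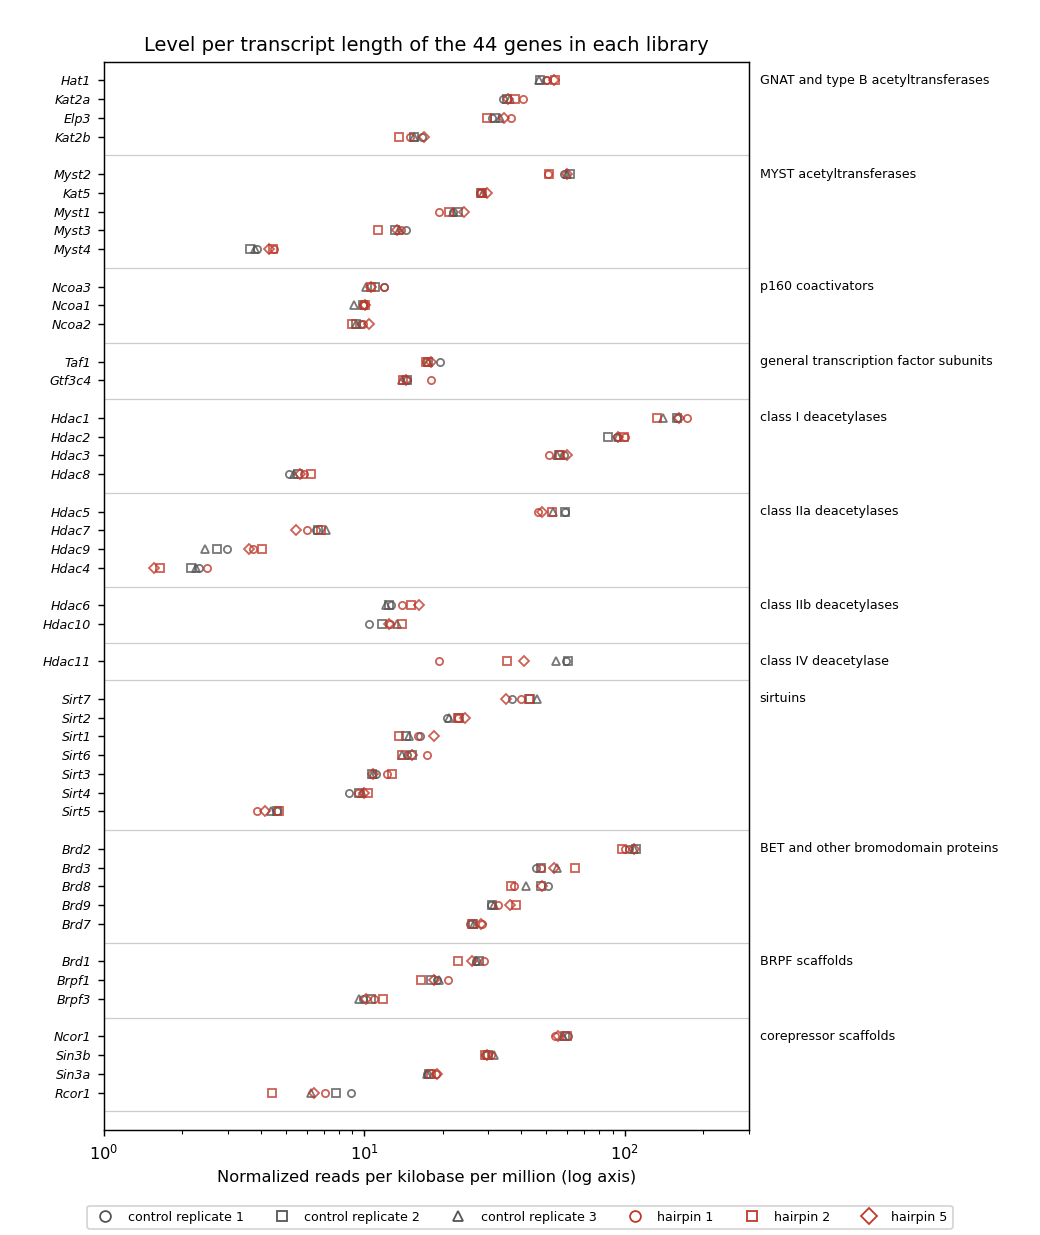
Level per transcript length (CPM per kilobase, log axis) of the 44 genes in each library, grouped by class and ordered by control mean within it; grey symbols are controls and red symbols hairpin libraries. Hdac1 and Brd2 are highest and Hdac4 and Hdac9 lowest, and the hairpin libraries of Hdac11 spread to the left of its controls.

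Genes of the same complexes and of acetyl-CoA and NAD supply gave a like picture. Of 124 such genes in the files 122 were tested and none was called in edgeR, beside 1.25% of all genes tested. At an unadjusted p under 0.05 in edgeR there were 11 (9.02%), beside 16.5%. The median log2 fold change of the 122 was 0.044. DESeq2 and limma-voom with quality weights each called Crebbp, the target of the hairpins, lower and Nmnat2 higher. These were 2 of 123 and 2 of 122 genes, beside 5.30% and 5.09% of all genes. Ep300 stood at 121, 111 and 113 CPM in controls against 127, 105 and 119 CPM with hairpins, with overlapping groups. Its log2 fold change was 0.025 ± 0.093 (adjusted p = 0.936). Nmnat2, which makes NAD, the cofactor of sirtuins, stood at 1.18, 1.22 and 1.61 CPM in controls against 3.53, 6.13 and 2.59 CPM with hairpins, with all hairpins above all controls. Its log2 fold change was 1.62 ± 0.37 (adjusted p = 0.0834), on 20 to 23 reads in each control.

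In each of the other groups none was called in edgeR. Positive fold changes made up 53.2% of all genes tested. Of 18 SAGA and ATAC subunits 12 had positive fold changes, and the deubiquitinase gene Usp22 and Atxn7 had the smallest p, with log2 fold changes of 0.38 ± 0.11 (adjusted p = 0.150) and -0.31 ± 0.12 (adjusted p = 0.256). Of 24 MYST complex subunits 15 were positive, with Dmap1 at 0.24 ± 0.095 (adjusted p = 0.257) and the YEATS reader Yeats4 at 0.27 ± 0.12 (adjusted p = 0.314). Of 31 deacetylase complex subunits 18 were positive, with the NCoR subunit Tbl1xr1 at -0.24 ± 0.088 (adjusted p = 0.226) and the methyl-DNA binding gene Mbd2 at -0.25 ± 0.095 (adjusted p = 0.245). Of 23 other bromodomain and YEATS readers 15 were positive, with Brdt at 0.37 ± 0.14 (adjusted p = 0.246) and Mllt3 at -0.25 ± 0.13 (adjusted p = 0.387). In the supply group 6 of 10 were positive, and the citrate carrier gene Slc25a1 stood at 0.39 ± 0.15 (adjusted p = 0.256). Of 14 partners of class IIa deacetylases 9 were positive, with Ywhag, a 14-3-3 protein gene, at 0.15 ± 0.081 (adjusted p = 0.407) and the kinase gene Sik3 at -0.18 ± 0.11 (adjusted p = 0.472).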

How the data were processed

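RNA-seq of messenger RNA taken with oligo(dT) beads, per the labels' protocols, was used from 6 libraries. The deposited values are raw counts of reads per gene, which the authors made with TopHat2 2.0.12 and HTSeq 0.6.1 on build mm9 (bcl2fastq 1.8.2 before that), per the submitters' processing notes; neither annotation nor strand setting is given in the sources used here. HTSeq summary rows (24.8% to 28.9% of counts) were left out.

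Group differences in counts were tested by edgeR 4.0.16 under R 4.3.3 (TMM, filterByExpr, robust quasi-likelihood test, group as the only term), adjusted by Benjamini-Hochberg over 13390 genes. SE was taken from the fold change and F, and 95% intervals from SE and the total degrees of freedom. The alternatives were DESeq2 1.42.0, limma-voom (limma 3.58.1) with and without quality weights, RLE and upper quartile normalization, 2 other filters, no robust estimation, and leaving out each library. The code was tested on simulated data.

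Genes, lists and tests were chosen with earlier results of these data known. Every one of the 44 is given. Those described in full are, in each class, the 2 with the smallest p and the highest and lowest per length, and any called in an alternative. Of related lists the 2 of smallest p are named, and of marker lists the 2 most abundant; 2 markers of these lists are not reported here and are left out of the sums. Exons of 19 of the 44 overlap another gene in GENCODE M21, among them Hdac11 (antisense) and Hdac7 on the opposite strand. Without strand, reads of such overlapping genes cannot be told apart. Overlaps on the same strand, as in Hdac5, Brd3, Rcor1 and Sirt7, are not resolved by strand either. Counting errors assume independent reads.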

Additional observations from a re-analysis of the deposited data

How the results depend on the processing

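The count of the 44 genes called in edgeR was 0. It was 2 in DESeq2 and 3 in limma-voom with quality weights, and 0 to 1 when 1 library was left out (Hdac11, without hairpin 1). It was 0 in the other 6 alternatives. Over all genes the count was 168. It was 736 in DESeq2 and 682 with quality weights, and 0 to 389 when 1 library was left out, with 0 without control replicate 1 or 2 (1332 and 1238 at an unadjusted p under 0.05), 48 without control replicate 3, and 368, 101 and 389 without hairpins 1, 2 and 5. Among related genes 0 were called, and 2 in DESeq2 and 2 with quality weights. With 1 library left out it was 0 to 1, being Crebbp without hairpin 2 (adjusted p = 0.0478) and Nmnat2 without hairpin 5 (adjusted p = 0.0450). The cause of these differences was not tested.

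The sign of the log2 fold change was kept in 31 of the 44 genes in all 14 alternatives. It changed at least once in 13, whose primary values were at most 0.110 in size, Hdac1 and Hdac3 among them. With upper quartile normalization 8 genes, not 10, had groups that did not overlap. The level per length with the median transcript length was 112 for Brd2, 113 for Hdac2, 63.6 for Myst2 and 179 for Ncor1. No paired analysis was possible because, among the control labels, only the number 2 is given, and numbers 1 and 3 only name libraries. With 3 libraries a group, fold changes smaller than the width of the intervals to either side could not reach an unadjusted p under 0.05 in edgeR. A call at the adjusted threshold needed more. Hdac9, at a log2 fold change of 0.49 with an interval of 0.23 to 0.75, was not called in edgeR.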
